A study of Mus musculus with 3 samples.

Results

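Th, Ddc, Dbh and Pnmt make catecholamines, Slc18a2, Slc6a2 and Slc22a3 carry them across membranes, and Maoa and Maob break them down. These 9 genes were chosen by name from the 52550 genes of the deposited table, and all 9 had a row. They were measured in LepR+ cells, sorted by yellow fluorescent protein from the superior cervical ganglia of male LepRCRE::Ai32 mice aged 10 weeks. Cre recombinase stands at the leptin receptor gene in this line, and Ai32 makes a channelrhodopsin fused to the fluorescent protein wherever Cre has been active, so the sort also takes cells whose precursors had Cre. There is 1 group of 3 libraries, labelled biological replicates. How many cells or animals went into each is not stated, so a p-value measures only the spread between these libraries.

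Sympathetic neurons make noradrenaline from tyrosine: tyrosine hydroxylase forms L-DOPA, a decarboxylase forms dopamine, a vesicular transporter loads dopamine into vesicles, and dopamine beta-hydroxylase turns it into noradrenaline there. Released noradrenaline is cleared by a high-affinity transporter of the neuron and by low-affinity carriers of other cells, and is then oxidised or methylated. The superior cervical ganglion, in the upper neck, holds the bodies of such neurons together with satellite glia, Schwann cells, fibroblasts, vessels and the perineurial cells that wrap nerve.

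The LepR+ cells had almost no RNA of the synthesis enzymes, but Slc18a2, the vesicular monoamine transporter, and the monoamine oxidase genes Maoa and Maob were well above them in at least 2 of 3 libraries. The 4 synthesis genes together took 29 of the 7672 reads that fell on the 9 genes. In TPM, transcript abundance scaled to the same total in every library, Slc18a2 had 34.4, 49.1 and 282 in replicates 1, 2 and 3. Maoa had 1.43, 136 and 151 TPM, and Maob had 13.8 and 146 TPM in replicates 1 and 2 and no read in replicate 3. Slc18a2, Maoa and Maob made up from 95.6% to 99.7% of the TPM of the 9 genes in a library. The membrane uptake carriers Slc6a2 and Slc22a3 were low, at 6.35 and 4.94 TPM in replicate 2 and under 1 TPM elsewhere.

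TPM gives reads per length of the gene, so levels can be set side by side between genes. Reads on genes, recovered from the deposited values, came to 8239695, 8039544 and 7722652, and 1 read on a gene of 1 kb was worth 0.391, 0.391 and 0.418 TPM in replicates 1, 2 and 3. A library without a read is printed as 0 reads, because the deposited value then holds only 0.25 read that had been added to every gene, while means and SDs use the deposited values. Lepr, the gene that carries Cre, had 363, 32.1 and 54.0 TPM. Of 16 perineurial markers, 7 had at least 1 TPM in all 3 libraries, and 3 had under 10 reads in every library. Cldn1, the claudin of the perineurial barrier, had the highest mean of the 16, with 216, 246 and 220 TPM. Other markers of that list varied more, with Slc2a1 at 1.59, 34.0 and 0.507 TPM, Itgb4 at 0.851, 32.1 and 1.15 and Ocln at 54.1, 0.116 and 0.421. Krt19 had no read. Summed levels were 537 to 817 TPM for the perineurial list, 27708 to 32805 for the glial list and 4510 to 6690 for the fibroblast list. A few genes made most of the glial and fibroblast sums, with means of 14163 TPM for Fabp7, 8934 for Apoe, 3791 for Dcn and 1618 for Lum. The glial Foxd3 averaged 7.34 TPM, and the fibroblast genes Col1a1 and Pdgfra 10.5 and 13.7 TPM. In such bulk RNA, fewer cells of a type and less RNA per cell cannot be told apart.

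**Figure D1:**
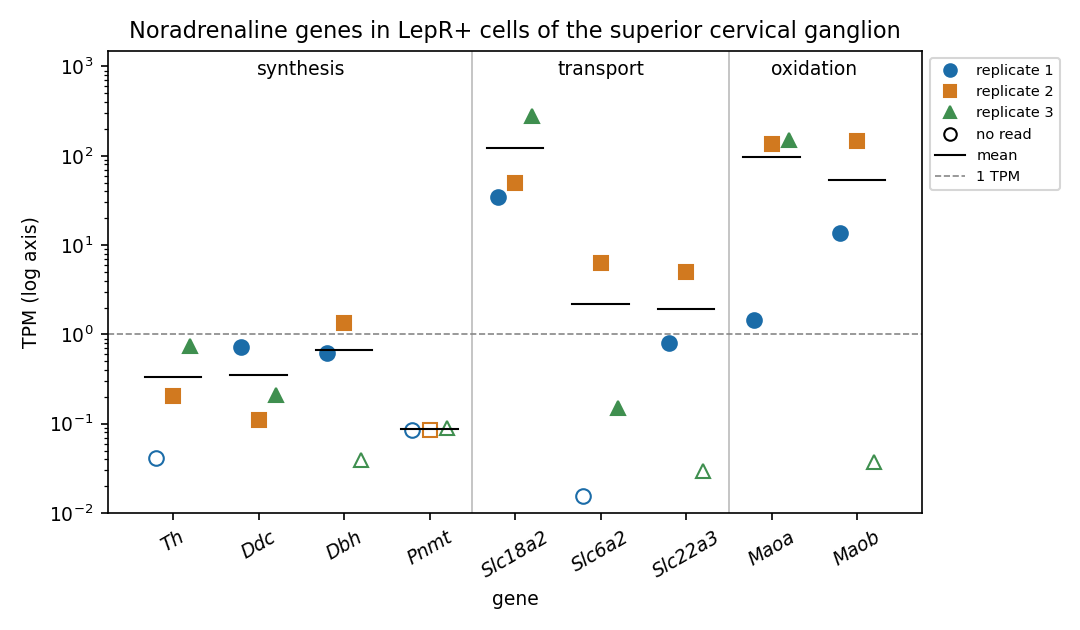
TPM (log axis) of the 9 genes in each of the 3 libraries, grouped by role, with the mean as a bar and the level of 1 TPM dashed. Open symbols have no read and stand at the value of the added 0.25 read. Slc18a2 lies above 30 TPM in all 3 libraries, while Maoa and Maob spread over more than an order of magnitude and the synthesis genes stay near or under 1 TPM.

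For every gene, limma's moderated test asked whether the mean log2(TPM + 1) differed from that of a gene at 1 TPM, over all 27552 genes that had a read in at least 1 library. A gene is said to lie above or below 1 TPM, here and in the lists that follow, only where this test called it at an adjusted p under 0.05. By level alone, 2 members, Slc18a2 and Maoa, had at least 1 TPM in every library. Of the 8 members with a read, 1 lay above 1 TPM and 0 below, where 16.4% of all genes tested were called above and 19.5% below. At an unadjusted p under 0.05 the counts were also 1 above and 0 below, and with a mean-variance trend in limma they were 3 above and 2 below, where 5595 and 9890 of the 27552 genes were called. Pnmt had no read and was not tested. The median level of all 9 members was 1.03 in log2(TPM + 1), and that of all genes tested 0.88.

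Th, tyrosine hydroxylase, whose step limits the rate of the pathway (ENSMUSG00000000214.11, chromosome 7, 142892752 to 142931128 of GRCm38, reverse strand), had 0, 1 and 4 reads in replicates 1, 2 and 3. Those 4 reads were 0.751 TPM, with a 95% exact Poisson interval of 1.09 to 10.2 reads, and 3 reads of Th would be 0.497, 0.496 and 0.530 TPM. Its mean was 0.333 ± 0.371 TPM (SD, n = 3), and it was not called below 1 TPM (limma, adjusted p = 0.128). Intervals of this kind cover counting error only, since the reads are PCR copies without molecular identifiers.

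Ddc, which decarboxylates L-DOPA and also makes serotonin in other cells (chromosome 11, 11814101 to 11898144), had 8, 1 and 2 reads, or 0.724, 0.109 and 0.211 TPM. Dbh, the enzyme inside the vesicle that turns dopamine into noradrenaline (chromosome 2, 27165233 to 27183200), had 4, 9 and 0 reads. The 9 reads of Dbh were 1.34 TPM, the only value above 1 TPM among the 12 of the synthesis genes. Pnmt, which converts noradrenaline to adrenaline in the adrenal medulla (chromosome 11, 98386450 to 98388181), had no read in any library, where 3 reads would be 1.02, 1.02 and 1.09 TPM. Neither Ddc nor Dbh passed the test (limma, adjusted p = 0.119 and 0.444), and the ranges of Th, Ddc and Dbh over the libraries overlapped.

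Summed over the 4 synthesis genes, the level was 1.47, 1.74 and 1.09 TPM in replicates 1, 2 and 3, a mean of 1.43 ± 0.327 TPM (SD, n = 3). No library stood apart in this sum. It held 12, 11 and 6 reads, so differences between libraries were not detectable at this depth.

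Slc18a2, also called VMAT2, fills vesicles with dopamine, noradrenaline, serotonin or histamine (ENSMUSG00000025094.7, forward strand, chromosome 19, 59260896 to 59296012, placed by GENCODE M21 under another version of the same ID). It had 334, 478 and 2562 reads, with 95% exact Poisson intervals of 299 to 372, 436 to 523 and 2464 to 2663 reads. Replicate 3 was 8.18 times replicate 1 in TPM, so the libraries differed by far more than counting error. The mean of 122 ± 139 TPM (SD, n = 3) was 5.31 ± 0.76 (SE) above 1 TPM on the log2(TPM + 1) scale, with all 3 libraries above (limma, adjusted p = 0.0416). It was higher than the mean of 95.2% of the genes tested. The call did not hold without any 1 library. Leaving out replicates 1, 2 and 3 in turn gave limma adjusted p-values of 0.0863, 0.124 and 0.0581, and testing only genes that averaged 0.5 TPM or more gave 0.0580.

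The lowest library of Slc18a2, 34.4 TPM, was above the highest of the 6 members other than Maoa and Maob, 6.35 TPM. Slc18a1, the paralogue that does the same work in chromaffin cells, had 3, 1 and 0 reads. Reads of Slc18a2 could in part be those of the antisense gene Gm29261, which shares 111 exonic bases with it in M21 and had 0, 0 and 1 reads. No source used here says whether reads were counted by strand.

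**Figure D2:**
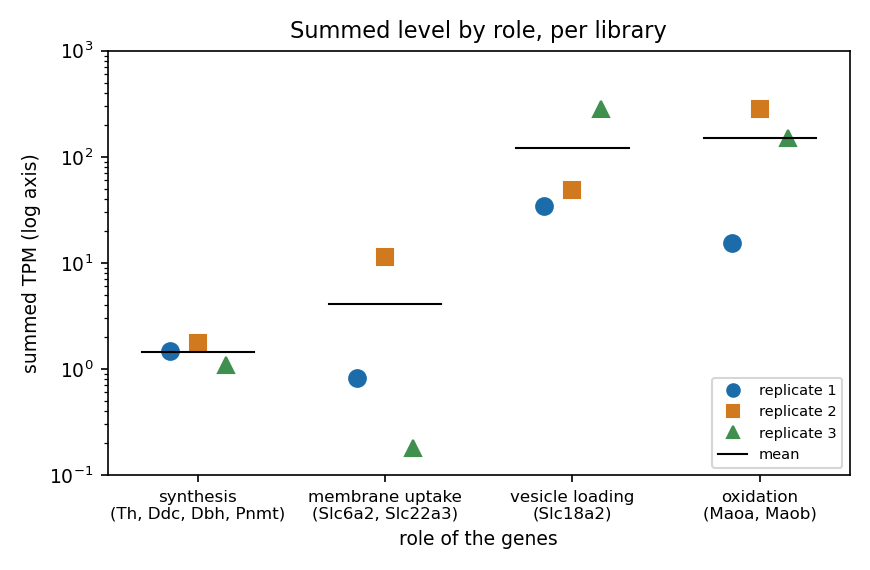
Summed TPM (log axis) of the genes of each role in each library, with the mean over the 3 libraries as a bar. Synthesis lies between 1.09 and 1.74 TPM, membrane uptake between 0.179 and 11.3 TPM, vesicle loading between 34.4 and 282 TPM and oxidation between 15.2 and 282 TPM.

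The proximal promoters of Th, Slc18a2, Maoa and Dbh are shown because these genes span the range of levels, with Th and Dbh low and Slc18a2 and Maoa high. They are RefSeq sequences of GRCm38.p6, which held 6 of the 9 members, running from 250 bases before the RefSeq start of the transcript to 10 bases after it. These starts differ in part from the gene ends of M21 given above. The Slc18a2 window ends before the M21 start at 59260896, and the Th and Dbh windows lie inside the M21 spans of their genes. Capitals mark a cAMP response element, TGACGTCA, which reads the same on both strands, and a GC box, GGGCGG or CCGCCC on the other strand. The motifs do not overlap in these windows.
Th, chr7:142899986-142900245, reverse strand: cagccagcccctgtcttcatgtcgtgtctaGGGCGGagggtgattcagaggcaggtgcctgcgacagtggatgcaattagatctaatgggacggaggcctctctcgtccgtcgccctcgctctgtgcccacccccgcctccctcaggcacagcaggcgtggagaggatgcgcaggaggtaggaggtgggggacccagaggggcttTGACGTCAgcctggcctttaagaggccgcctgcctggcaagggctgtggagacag
Slc18a2, chr19:59260628-59260887, forward strand: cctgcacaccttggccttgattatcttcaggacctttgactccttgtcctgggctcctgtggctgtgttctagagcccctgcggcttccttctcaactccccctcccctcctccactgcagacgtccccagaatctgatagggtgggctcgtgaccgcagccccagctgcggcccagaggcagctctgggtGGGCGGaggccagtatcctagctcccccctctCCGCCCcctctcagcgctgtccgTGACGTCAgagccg
Maoa, chrX:16619448-16619707, forward strand: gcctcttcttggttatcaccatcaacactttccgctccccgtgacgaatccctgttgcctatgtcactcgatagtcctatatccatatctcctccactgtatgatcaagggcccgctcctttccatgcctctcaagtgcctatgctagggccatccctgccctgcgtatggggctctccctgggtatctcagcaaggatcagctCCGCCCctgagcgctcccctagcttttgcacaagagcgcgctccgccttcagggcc
Dbh, chr2:27165257-27165516, forward strand: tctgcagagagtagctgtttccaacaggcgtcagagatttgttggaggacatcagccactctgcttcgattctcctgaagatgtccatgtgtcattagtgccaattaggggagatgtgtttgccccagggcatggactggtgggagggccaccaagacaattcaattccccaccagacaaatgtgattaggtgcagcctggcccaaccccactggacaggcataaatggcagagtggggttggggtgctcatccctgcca

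Th and Slc18a2 both hold a TGACGTCA, which 1.67% of the 32851 promoters of that length in the table hold. In Th it runs from base -45 to -38 before the RefSeq start, and in Slc18a2 it spans the RefSeq start, from base -4 to 4. Th had 0, 1 and 4 reads and Slc18a2 had the highest mean of the members, and a link between the motif and the level was not tested. A GC box is in 33.4% of promoters of that length, with 1 match in Th, 2 in Slc18a2, 1 in Maoa and none in Dbh. Maoa and Dbh hold no TGACGTCA, and the windows of Ddc and Slc22a3, scanned but not shown, hold neither motif. A match of letters describes the sequence and shows no binding.

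Slc6a2, the noradrenaline transporter by which sympathetic neurons take noradrenaline back up (chromosome 8, 92960079 to 93001667, forward strand), had 0, 102 and 2 reads. The 102 reads were 6.35 TPM in replicate 2, at least 34.0-fold higher than the level of 3 reads in replicate 1, and the 2 reads in replicate 3 were 0.149 TPM. Slc22a3, also called OCT3, a low-affinity carrier of catecholamines outside neurons (chromosome 17, 12418960 to 12507704, reverse strand, placed under another version of its ID), had 7, 44 and 0 reads. These were 0.810 and 4.94 TPM in replicates 1 and 2. Both carriers were thus highest in replicate 2, and neither was called above or below 1 TPM (limma, adjusted p = 0.974 for Slc6a2 and 0.850 for Slc22a3).

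The sign of both differences from 1 TPM turned when replicate 2 was left out, to -0.89 for Slc6a2 and -0.55 for Slc22a3. Slc22a3 shares 420 exonic bases with Plg, the plasminogen gene on the other strand, which had 3, 3 and 0 reads. The sum of 15 sympathetic neuron markers was 4.73, 57.8 and 11.9 TPM in replicates 1, 2 and 3, and 10 of the 15 had under 10 reads in every library. Tubb3, a neuronal tubulin, gave 50.9 TPM of that sum in replicate 2, and Prph had 0, 20 and 0 reads. Elavl4, Stmn2 and Ret were highest in replicate 3, with 22, 10 and 60, 0, 2 and 10, and 2, 6 and 35 reads. Npy, a co-transmitter of these neurons, had no read in any library and Rbfox3 had 0, 2 and 1 reads. The part of neuronal RNA in the values of Slc6a2 and Slc22a3 was not tested.

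Maoa, which oxidises noradrenaline and serotonin at the mitochondrial outer membrane (ENSMUSG00000025037.6, chromosome X, 16619698 to 16687818, forward strand), had 15, 1452 and 1506 reads. Replicate 1 stood far below the others, with replicate 3 at 105 times its TPM, while replicates 2 and 3 had 136 and 151 TPM. The 95% exact Poisson intervals of Maoa in replicates 2 and 3, 1378 to 1529 and 1431 to 1584 reads, overlapped. The mean was 96.2 ± 82.4 TPM (SD, n = 3), higher than that of 93.6% of genes tested. Its difference from 1 TPM, 4.21 ± 1.58 (SE) on the log2(TPM + 1) scale, was not called (limma, adjusted p = 0.132), and without replicate 1 it was 6.17 (adjusted p = 0.0393).

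Maob, which prefers phenylethylamine and is the isoform of astrocytes and platelets (ENSMUSG00000040147.14, chromosome X, 16709282 to 16817366, reverse strand), had 98, 1043 and 0 reads. Replicate 2, with 146 TPM, was 10.6 times replicate 1 and at least 325-fold higher than the level of 3 reads in replicate 3. The mean of 53.3 ± 80.7 TPM (SD, n = 3) was not called (limma, adjusted p = 0.285). The genes lie tail to tail with 21463 bases between their ends and share no exonic base.

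Which oxidase was higher differed between the libraries. Maoa was 0.104 of Maob in replicate 1 and 0.932 of it in replicate 2, and in replicate 3 it was at least 336-fold higher than the level of 3 reads of Maob. The sum of both was 15.2, 282 and 151 TPM in replicates 1, 2 and 3, lowest in replicate 1.

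The sum of 14 macrophage markers was 4.30, 85.6 and 128 TPM in replicates 1, 2 and 3, lowest in replicate 1. Single genes made most of it, with Cd68, a lysosomal protein, at 0, 196 and 0 reads and Tyrobp, a signalling adaptor, at 0, 33 and 120 reads, and 9 of the 14 had under 10 reads in every library. Ptprc, the leukocyte antigen CD45, had 3, 89 and 488 reads, the integrin Itgam 0, 0 and 296 reads, and the lysozyme gene Lyz2 1, 7 and 43 reads, all highest in replicate 3. C1qc had 4, 0 and 0 reads, Fcgr1 5, 0 and 1 and Cx3cr1 4, 2 and 0, too few to rank the libraries. Csf1r, the defining receptor of macrophages, had 3, 5 and 7 reads. Of 6 platelet markers 4 had no read, Pf4 and Ppbp among them, while the integrin Itga2b had 0, 28 and 0 reads and Gp6 had 1, 1 and 2. Of 8 mast cell markers, a cell type that also uses Slc18a2, 7 had under 10 reads in every library, with the protease Cpa3 at 0, 0 and 1 reads. The receptor Kit was the exception, at 7.43, 2.29 and 15.7 TPM. The sum of 10 endothelial markers was 323, 430 and 322 TPM in replicates 1, 2 and 3, that of 10 mural markers 463, 335 and 128 TPM, and that of 10 glial markers 32805, 27708 and 29922 TPM. The part of RNA of any of these cell types in the levels of Slc18a2, Maoa and Maob was not tested.

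**Figure D3:**
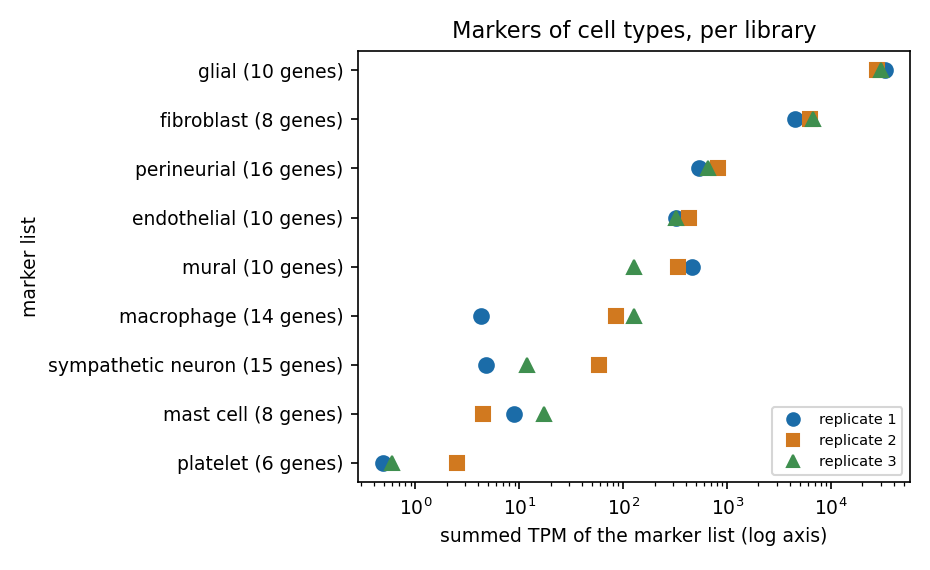
Summed TPM (log axis) of marker lists of 9 cell types in each library, ordered by mean. Glial and fibroblast lists lead, the macrophage list is lowest in replicate 1 at 4.30 TPM, and the platelet list stays under 3 TPM. The sympathetic neuron list is highest in replicate 2 at 57.8 TPM, of which Tubb3 alone gives 50.9 TPM.

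The spread of Maoa and Maob between libraries was larger than that of most genes of like level. Among 2838 genes with a mean within 2-fold of that of Maoa, 15.5% had a larger SD of log2(TPM + 1) than its 3.40, and the median SD was 1.10. Maob had an SD of 3.58, with 11.6% of 3884 genes of like level above it and a median of 1.52. Slc18a2 had an SD of 1.60, with 31.3% of 2350 genes of like level above it and a median of 0.98. Having at least 1000 reads in 1 library and none in another, as Maob had, was seen in 62 of 3228 genes (1.92%).

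**Figure D4:**
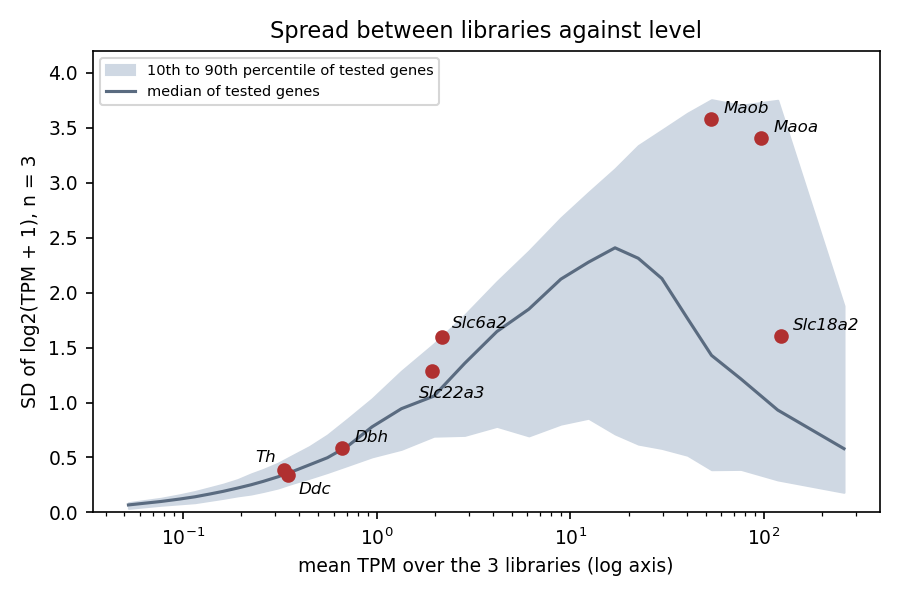
SD of log2(TPM + 1) over the 3 libraries against mean TPM (log axis) for the 8 members with a read, drawn over the median and the band from the 10th to the 90th percentile of all tested genes in bins of mean level. Maoa and Maob lie near the upper edge of the band at SDs of 3.40 and 3.58, and Slc18a2 lies nearer the median at 1.60.

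Ordered by mean TPM, the members ran Slc18a2, Maoa, Maob, Slc6a2, Slc22a3, Dbh, Ddc, Th and Pnmt. No pair of neighbours in this order was separated, since the ranges over the 3 libraries overlapped in every one. The mean difference within libraries between Slc18a2 and Maoa was 1.10 ± 2.66 (SD, n = 3) on the log2(TPM + 1) scale, with Slc18a2 higher in 2 of 3 libraries. Between Maob and Slc6a2, the widest step by mean TPM, it was 2.68 ± 2.46, with Maob higher in 2 of 3. An exact sign-flip test over 3 libraries cannot go below p = 0.25, so none was run. By the median over libraries Maoa came first, at 136 TPM, and only 2 of the 9 members kept their place.

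The rest of the pathway was described with 9 lists, of which the 66 genes reported here gave 13 above 1 TPM, 18 below and 8 with no read. Over all genes tested, 16.4% were above and 19.5% below, and the difference from these shares was not tested for any list. The counts rest on the same limma test as the members, and every adjusted p of a call was between 0.00368 and 0.0498. Without replicates 1, 2 and 3 the genes above were 8, 8 and 0, and no gene was below in limma's test. Over the whole table these subsets called 2594, 2670 and 0 genes above and none below, so the zeros are not particular to the pathway. At an unadjusted p under 0.05 these subsets gave 16, 14 and 13 above and 0, 0 and 1 below. Median levels per list ranged from 0.12 in log2(TPM + 1) for adrenergic receptors to 4.76 for copper and ascorbate supply, against 0.88 for all genes tested.

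Tetrahydrobiopterin is the cofactor of Th. Of its 8 genes 2 lay above 1 TPM: Qdpr, which regenerates the cofactor, at 92.6, 151 and 222 TPM, and Pts, which acts in its synthesis, at 62.1, 84.2 and 21.4 TPM. Gch1, the rate-limiting enzyme of that synthesis, lay below with 0, 1 and 1 reads. Spr, which completes the cofactor, had 70, 0 and 3 reads, and Pcbd2 had 1, 3 and 19 reads, neither called. Of 4 genes of tyrosine carriers, 0 were above and 2 below, Slc7a8 with 0, 0 and 3 reads and Slc16a10 with 0, 0 and 2 reads. Slc3a2, the shared heavy chain of amino acid carriers, had 0.693, 43.8 and 17.2 TPM, and its partner Slc7a5 had 0.132, 1.08 and 11.2 TPM, neither called.

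Of 5 genes that supply copper and ascorbate, both needed by Dbh, 4 were above and 0 below. They were the copper importer Slc31a1 at 96.2 ± 27.7 TPM, the copper pump Atp7a at 32.2 ± 27.2 and the ascorbate carrier Slc23a2 at 9.20 ± 7.01 (SD, n = 3), and the copper chaperone Atox1 at 64.6, 129 and 75.9 TPM. Cyb561, the electron shuttle of chromaffin granules, had 1, 110 and 4 reads.

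Among 6 other amine transporters, 0 lay above 1 TPM and 3 below. Those below were the dopamine transporter Slc6a3, the serotonin transporter Slc6a4 and Slc18a1, none with more than 3 reads in a library. Slc22a2 had no read, and Slc29a4 and Slc47a1, carriers of organic cations, had at most 13 and 7 reads in a library.

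Of 8 further breakdown enzymes, 4 lay above 1 TPM and 0 below. Akr1a1 and Akr1b3, reductases of the aldehydes that monoamine oxidase forms, had means of 278 ± 243 and 22.1 ± 3.91 TPM (SD, n = 3). Sult1a1, a phenol sulfotransferase, had 351 ± 151 TPM, and Aldh1a1, an aldehyde dehydrogenase, 70.3 ± 89.1 TPM. Aldh9a1 had 2.34, 3.03 and 96.1 TPM, Aldh2, the mitochondrial aldehyde dehydrogenase, 0.554, 5.13 and 9.07 TPM, and Adh1 535, 0 and 0 reads, none of them called.

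**Figure D5:**
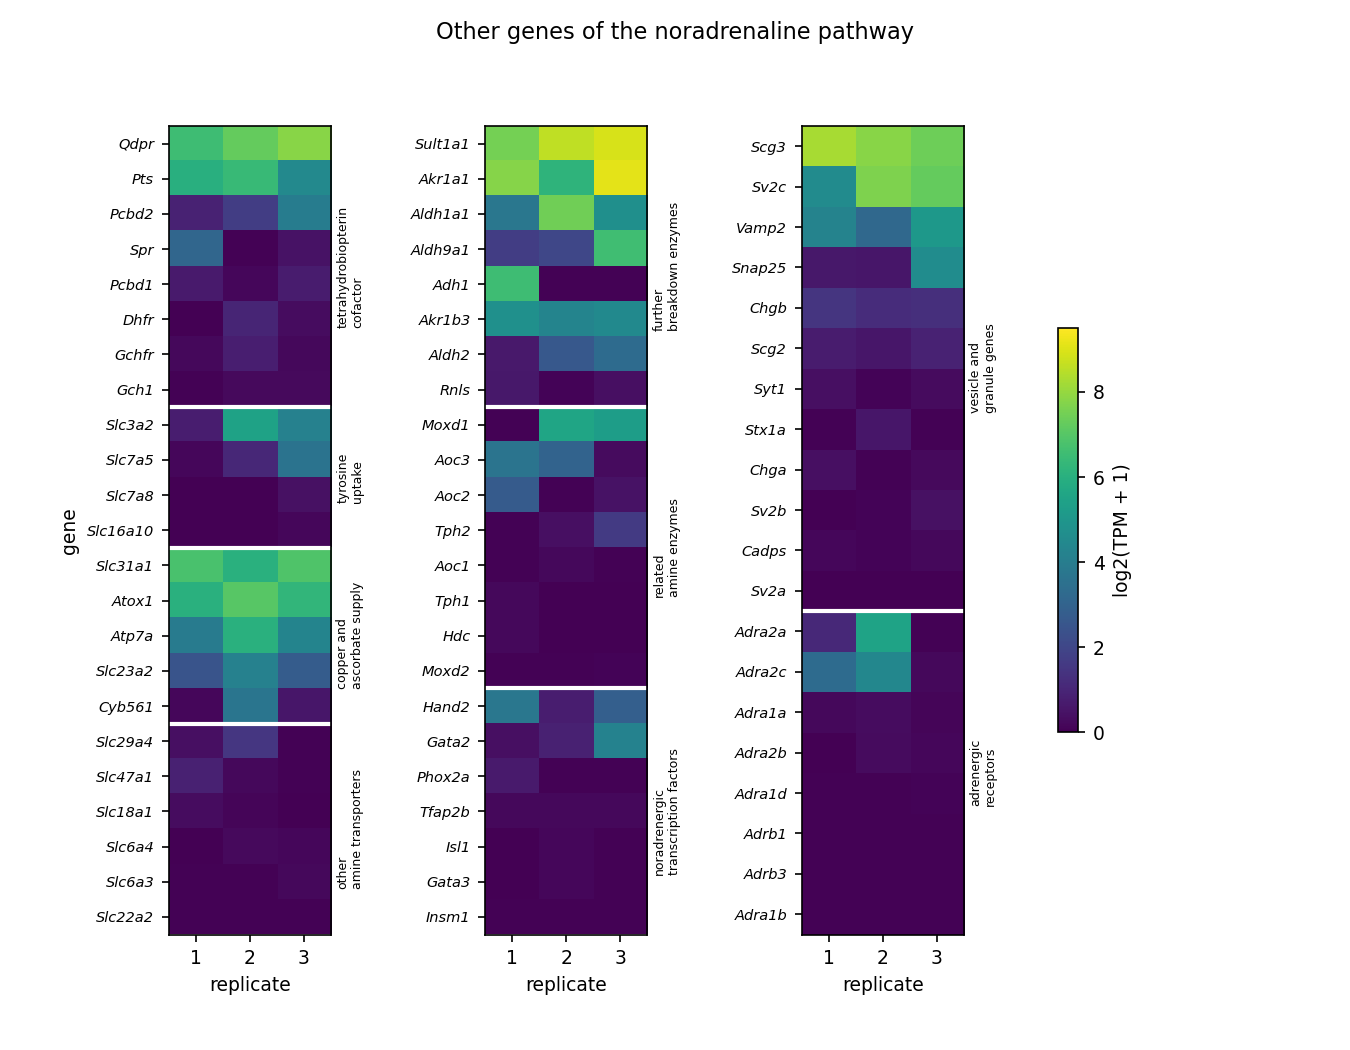
Level as log2(TPM + 1) of 66 other genes of the pathway in each library, in 9 lists ordered within by mean TPM. Rows that are bright in all 3 libraries include Qdpr, Slc31a1, Sult1a1, Akr1a1 and Scg3, while the lists of amine transporters and adrenergic receptors are mostly dark.

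Enzymes related to those of the pathway gave 0 of 8 above and 3 below, namely Tph1, Hdc and Aoc1, with at most 2 reads in a library. Moxd1, a monooxygenase related to Dbh that is also on the perineurial list, had 0, 385 and 289 reads, or 47.1 and 37.8 TPM in replicates 2 and 3. Aoc3, an amine oxidase of the cell surface, had 11.5, 7.21 and 0.203 TPM, and Aoc2 had 36, 0 and 2 reads.

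Of 7 transcription factors of noradrenergic neurons reported here, 3 lay below 1 TPM. They were Gata3, Isl1 and Tfap2b, with at most 2 reads in a library, and Insm1 had no read. Hand2, a factor of sympathetic neuron development, had 12.5, 0.706 and 6.26 TPM and Gata2 had 0.308, 0.814 and 17.7 TPM, neither called. Phox2a, a homeodomain factor of these neurons, had 3, 0 and 0 reads.

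Of 12 vesicle and granule genes, 3 lay above 1 TPM and 4 below, where 16.4% and 19.5% of all genes tested were called. Scg3, a granin of secretory granules, had 302, 223 and 170 TPM, Sv2c, a synaptic vesicle glycoprotein, 23.1, 203 and 151 TPM, and Vamp2, a SNARE of vesicle fusion, 18.0, 8.33 and 32.5 TPM. Those below were the granin Chga, the calcium sensor Syt1, Sv2b and Cadps, with at most 7 reads in a library. Chgb had 1.75, 1.32 and 1.41 TPM from 12, 9 and 9 reads, and the SNARE Snap25 had 0.533, 0.475 and 23.5 TPM, neither called.

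Of 8 adrenergic receptors reported here, 0 lay above 1 TPM and 2, Adra1a and Adra2b, below, while 4 had no read. Adra2a had 11, 428 and 0 reads, and Adra2c had 9.12, 20.1 and 0.152 TPM. Both were highest in replicate 2 and lowest in replicate 3, and neither was called.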

How the data were processed

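The deposited table, made by the authors from 3 Smart-Seq2 libraries, holds log2 TPM for 52550 genes, per the file header and the labels' protocols. STAR and featureCounts with mm10 (GRCm38) were used, per the submitters' processing notes. Tool versions, strand setting, filters, annotation release and how TPM was computed are given by no source used here. From the values, 0.25 read was added per gene. Whole reads came out within 0.02 of a read for 49035 genes with GENCODE M21 exon lengths and for 756 with a length under another ID version. For 2759 genes, Slc18a2 and Slc22a3 among them, the length was solved from the values so that reads came out whole within 0.001 of a read. Whole reads were there a condition of the length and not a separate check. Genes with a read in at least 1 library (27552) were tested two-sided with limma 3.58.1 (R 4.3.3) on log2(TPM + 1) against 1 TPM. The prior had 1.11 degrees of freedom, and p-values were adjusted over all of these genes by Benjamini-Hochberg, called under 0.05. On this scale, changes of low genes come out too small. The script was tested on simulated data. Members were taken by name, and in each pathway list every gene with a call or averaging at least 1 TPM is named. Some genes of these lists are not reported here, and counts leave them out. Members and lists were chosen with earlier results of these data known. Some marker genes were named for the library in which they were highest, though 3 libraries of 1 group give no pattern across conditions. Where a symbol had several IDs, the one with the highest mean was used. The work used numpy 2.4.6, scipy 1.17.1, pandas 2.3.3 and matplotlib 3.10.9 under Python 3.11.15.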

Additional observations from a re-analysis of the deposited data

How the results depend on the processing

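No paired analysis was possible because there is only 1 group. The count of members above 1 TPM was 3 with a mean-variance trend (Slc18a2, Maoa and Maob), 0 among genes that averaged 0.5 TPM or more (1 at an unadjusted p under 0.05), and 0 to 1 when a library was left out, the 1 being Maoa without replicate 1 (1 to 2 at an unadjusted p under 0.05). The count below was 2 with the trend and at a level of 2 TPM (Th and Ddc both times), and 1, Pnmt, with no filter on low values. Those settings called 9890 and 11135 of 27552 and 29850 of 52550 genes below, so the counts of members say nothing particular to them. Of pathway genes, 8 were above among genes that averaged 0.5 TPM or more (14 at an unadjusted p under 0.05). That filter left 22425 genes, of which 3519 were called above. When a library was left out, 0 to 8 pathway genes were above, where 0 to 2670 of all genes were. In each of these settings and without mitochondrially encoded genes 0 pathway genes were below, where 0 to 15 of all genes were. At an unadjusted p under 0.05 the filter at 0.5 TPM and the table without mitochondrially encoded genes gave 0 and 19 below. Several log2 differences from 1 TPM changed sign, none called where it did: Slc6a2 to -0.95, -2.03 and -0.55 and Slc22a3 to -0.39, -1.02 and -0.43 with a pseudocount of 0.1 TPM, as deposited and at 2 TPM, Dbh to 0.074 at 0.5 TPM, and Spr and Aoc2 to -0.49 and -0.62 with 0.1 TPM. Leaving out a library gave ranges of -0.89 to 0.54 for Slc6a2, -0.55 to 0.71 for Slc22a3, -0.75 to 0.80 for Spr, -0.38 to 1.33 for Slc7a5, -0.62 to 1.12 for Cyb561, -0.75 to 0.59 for Aoc2, -0.38 to 1.54 for Gata2, -0.41 to 1.61 for Snap25 and -0.43 to 2.30 for Adra2a. By the median 2 members kept their place in the order, and 4 to 7 did when a library was left out. Rescaled without mitochondrially encoded genes, the synthesis sum was 1.80 TPM. Leaving out a library gave sums of 1.28 to 1.61, 47.8 to 171 and 83.1 to 217 TPM for synthesis, transport and oxidation. The causes were not tested. Counts of a few reads limit what can be said of Th, Ddc, Dbh and Pnmt.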
